A study of Mus musculus with 60 samples.

Results

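In P60 microglia from mice given lipopolysaccharide (LPS), 4 libraries carried the date 4/9/14 in their labels, and in 3 of the 4 inflammatory genes stood higher than in any other LPS library by their mean. They are male-titled libraries 3, 4 and 5 and female-titled library 4, and they were picked out by their date and by earlier sight of their strong response. They make up 4 of the 13 LPS libraries and 4 of all 60 libraries of the series. The other 9 LPS libraries carried the dates 4/8/14 (3 female-titled and 2 male-titled) and 4/10/14 (2 of each). A further 12 libraries came from P60 microglia of mice given saline. All 25 were made from C57BL/6N mice at postnatal day 60, with Trizol RNA and a stranded polyA kit. The labels used here do not give the dose of LPS, the hours after it, the isolation of the cells, or whether a library is 1 animal or a pool. P-values therefore measure only the spread between libraries. No saline library shared a date with an LPS library, so treatment and date cannot be told apart in any comparison with saline. For 3 of the 9 other LPS libraries, and for none of the 4, the sex in the title differed from the sex characteristic; the title is used here.

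LPS, a component of the outer membrane of Gram-negative bacteria, is sensed by Toll-like receptor 4. One arm of its signalling releases NF-kB, which drives cytokine genes such as Il1b and Tnf together with genes that feed back on the pathway. Another arm induces type I interferon, which acts through its own receptor and STAT factors on antiviral genes such as Ifit1 and on GTPases such as the Gbp and Irg families. In the brain, LPS given to the body also activates endothelial cells, and monocytes and neutrophils can adhere to the activated vessels.

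Sequences upstream of the start sites show the letters by which both arms are usually recognised. Tnfaip2 and Sdc4 stand for genes that were higher in all 4 libraries, and Ifit1 and Gbp7 for interferon genes whose levels overlapped with the other LPS libraries. The 250 bases before each start are from RefSeq on GRCm38.p6, a newer assembly than the mm9 named for the counts. They lie at chr12:111442411-111442660 on the plus strand for Tnfaip2, chr2:164443189-164443438 on the minus strand for Sdc4, chr19:34640639-34640888 on the plus strand for Ifit1 and chr3:142530086-142530335 on the plus strand for Gbp7. Capitals mark the NF-kB consensus in the first pair and the interferon-stimulated response element, searched as GAAANNGAAA, in the second pair, on either strand.
Tnfaip2: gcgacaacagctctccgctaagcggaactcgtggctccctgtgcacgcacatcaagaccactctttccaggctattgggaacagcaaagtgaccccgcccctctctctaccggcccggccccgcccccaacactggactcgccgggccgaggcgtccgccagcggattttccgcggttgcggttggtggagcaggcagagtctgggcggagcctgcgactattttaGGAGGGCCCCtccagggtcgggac
Sdc4: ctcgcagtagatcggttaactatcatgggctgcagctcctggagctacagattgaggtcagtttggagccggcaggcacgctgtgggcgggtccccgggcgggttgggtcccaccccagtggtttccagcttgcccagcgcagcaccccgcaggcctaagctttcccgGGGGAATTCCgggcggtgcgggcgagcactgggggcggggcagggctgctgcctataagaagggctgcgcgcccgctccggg
Ifit1: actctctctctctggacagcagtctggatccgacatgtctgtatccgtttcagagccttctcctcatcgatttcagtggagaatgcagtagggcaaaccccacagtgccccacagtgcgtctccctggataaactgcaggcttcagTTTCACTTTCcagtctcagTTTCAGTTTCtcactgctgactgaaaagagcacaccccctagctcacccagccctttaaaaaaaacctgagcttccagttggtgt
Gbp7: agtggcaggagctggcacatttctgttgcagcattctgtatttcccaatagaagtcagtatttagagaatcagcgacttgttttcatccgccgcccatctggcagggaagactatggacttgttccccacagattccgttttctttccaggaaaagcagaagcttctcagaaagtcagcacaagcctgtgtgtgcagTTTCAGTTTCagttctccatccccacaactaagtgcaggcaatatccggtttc

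Over the whole promoter window (250 bases before to 50 after a start), the NF-kB consensus was found in 9.55% of all genes with a RefSeq promoter and the response element in 3.99%. The consensus was present for 7 of 15 matched inflammatory genes, 11 of 20 matched NF-kB feedback genes and 7 of 26 matched interferon response genes. The response element was present for 14 of 26 interferon response genes and 9 of 10 interferon-induced GTPases, and for 0 of 15 inflammatory genes. Among the genes that were higher in all 4 libraries, 22 matched, 4 held the consensus and 0 the response element. A match describes these letters only, and the lists were built from genes known for each arm.

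The total counts of the 4 libraries lay between 856681 and 970080, within the range of the other LPS libraries (804990 to 1401251), while saline libraries ran from 802016 to 3228801. The share of counts from Ttr, the main transcript of the choroid plexus, was 0.861% to 3.07% in the 4 and 0.874% to 6.90% in the others. Microglial identity genes were detected throughout. All 30 homeostatic microglia genes passed the filter, and their summed level was 30945 to 55119 CPM (counts scaled to a fixed library size) in the 4 libraries and 36019 to 57469 CPM in the other LPS libraries. The mean GC content of the counted transcripts was 49.9% in female-titled library 4 and 47.8% to 49.3% in the 3 male-titled libraries. All 4 shared the number 8 in the bracketed code of their labels, which also stood on 1 library of each other date.

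The strong inflammatory level belonged to the 3 male-titled libraries and only in part to the female-titled one. Scores are the mean log2 CPM of the tested members of a list, minus the mean of the saline libraries. The inflammatory cytokine and chemokine score was 2.90, 3.17 and 2.95 in male-titled libraries 3, 4 and 5 and 1.79 in female-titled library 4. In the other 9 LPS libraries it ran from 0.78 to 2.00 with a median of 1.63. The female-titled library thus lay inside the range of the others, and all 3 male-titled libraries lay above it. The 2 other libraries with code number 8 scored 0.78 and 1.53.

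**Figure D1:**
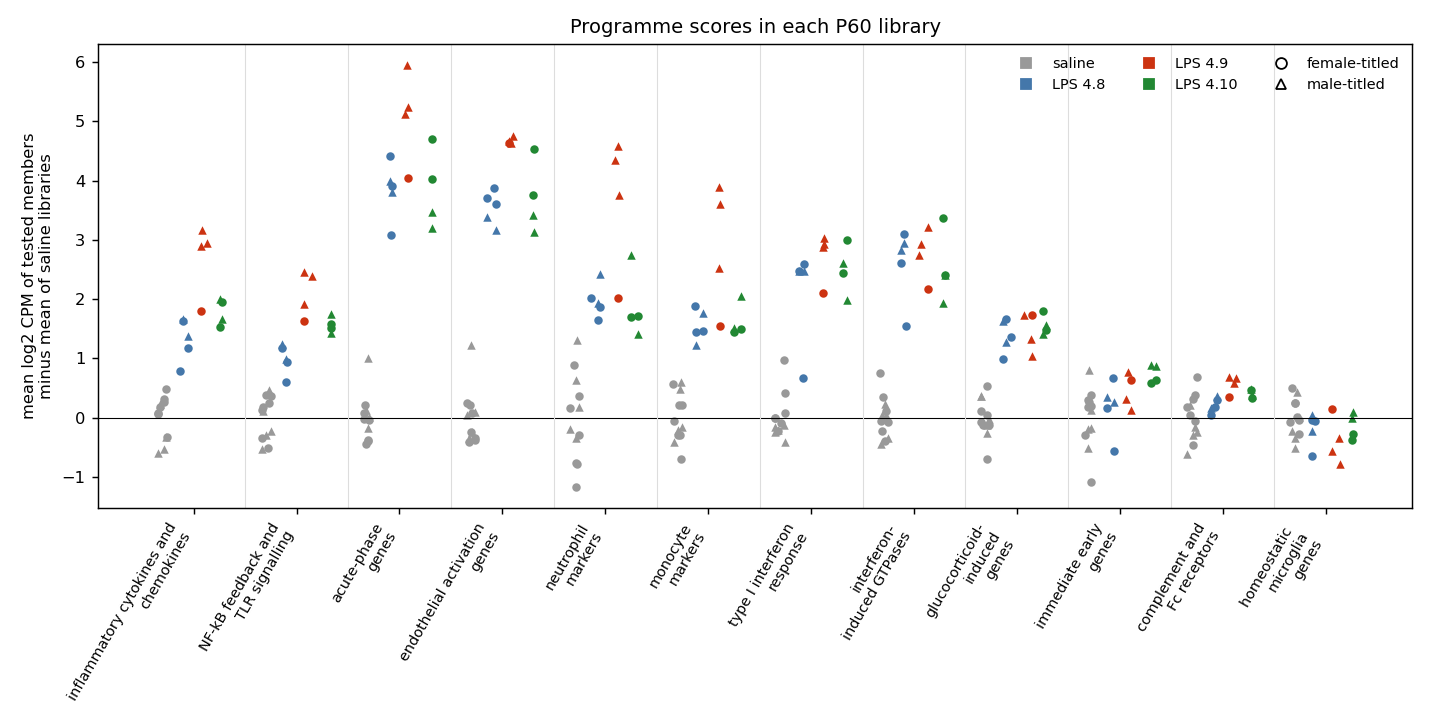
Score of 12 gene lists in each P60 library, as mean log2 CPM of the tested members minus the mean of the saline libraries; each point is 1 library, coloured by treatment and label date, with circles for female and triangles for male titles. The male-titled libraries of 4/9/14 score 2.90 to 3.17 on the inflammatory list, above every other LPS library, while their interferon scores (2.88 to 3.03) overlap with those of other dates, which run up to 3.00.

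Since the 4 libraries were chosen for their strength, their difference from the other 9 is described without a test. A gene is called higher or lower here when the 4 libraries do not overlap with the other 9 and the fitted difference is at least 2-fold. Of 10538 genes tested, 32 were called higher (0.304%) and 7 lower (0.0664%). Without the requirement of 2-fold, 48 genes lay above (0.455%) and 41 below (0.389%). Just inside the fold limit was D730005E14Rik (log2 difference 1.03), and just outside it was Pygl (0.97), the liver form of glycogen phosphorylase. With the 3 male-titled libraries set against the 4 other male-titled ones, by the difference in mean log2 CPM, 300 genes were called higher (2.85%) and 150 lower (1.42%).

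Of the 21 tested inflammatory genes, 4 were called higher and 0 lower, namely Il1b, Tnf, Nos2 and Ptgs2. The median difference of the list was 0.90 on the log2 scale, against -0.02 for all genes. Among male titles alone, 11 of 21 were called higher, with a median of 1.31, and the median difference of the female-titled library from the 5 other female-titled ones was 0.22.

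Il1b, the precursor of interleukin-1 beta, was at 653 CPM in female-titled library 4 and at 1899, 2452 and 1991 CPM in male-titled libraries 3, 4 and 5. The other LPS libraries held 233 to 590 CPM (median 509) and saline libraries 125 to 420 CPM (median 295). The female-titled library stood just above the highest of the others, and the male-titled ones stood far above it. The fitted log2 difference was 1.68 ± 0.28 (SE).

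Tnf, which encodes tumour necrosis factor, showed the same order with a narrower gap. It was at 480 CPM in the female-titled library and at 719, 931 and 838 CPM in the male-titled ones, against 177 to 360 CPM in the other LPS libraries and 83.9 to 268 CPM with saline. Its log2 difference was 1.35 ± 0.18 (SE).

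Nos2, the inducible nitric oxide synthase, reached 53.6, 60.8 and 55.7 CPM in male-titled libraries 3, 4 and 5. It was at 14.5 CPM in the female-titled library, next to the highest of the others (14.4 CPM). Ptgs2, the inducible cyclooxygenase that makes prostaglandin precursors, was at 1079 CPM in the female-titled library and 2550, 2545 and 1860 CPM in the male-titled ones, and the others ranged from 461 to 1061 CPM. For both genes the female-titled library cleared the others by a margin smaller than their spread.

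Lif, a cytokine of the interleukin-6 family, had the largest difference in the list, 2.42 ± 0.45 (SE) on the log2 scale. It was not called, because the female-titled library, at 11.4 CPM, lay inside the range of the others (2.50 to 13.1 CPM). The male-titled libraries held 47.4, 59.7 and 38.3 CPM. Lif is one of the few inflammatory genes that did not pass the test between the other LPS libraries and saline (log2 change -0.10 ± 0.30 SE, adjusted p = 0.87 by edgeR). Il1rn, the natural antagonist of the interleukin-1 receptor, was at 177 CPM in the female-titled library and 459, 961 and 568.1 CPM in the male-titled ones, against 32.2 to 311 CPM.

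**Figure D2:**
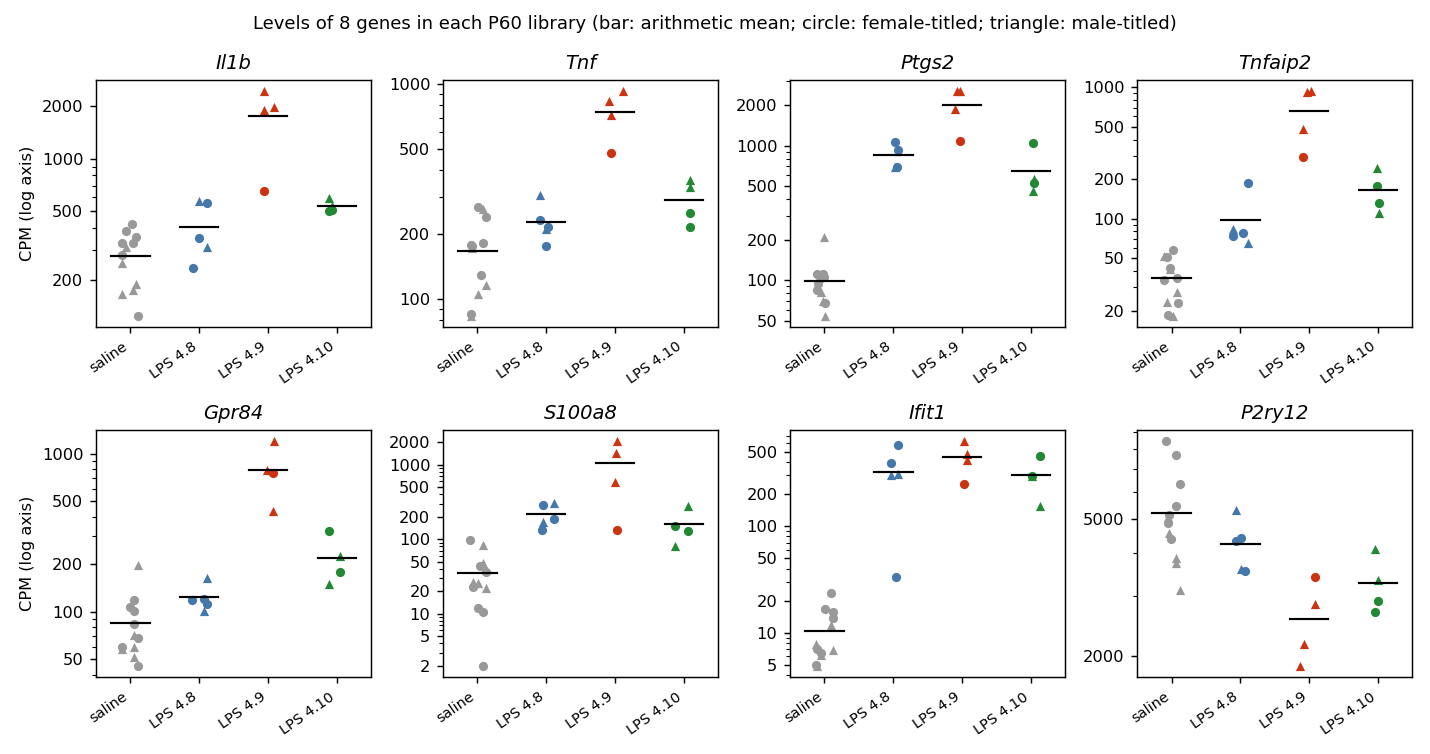
Level of 8 genes in CPM (log axis) in each P60 library by treatment and label date; points are libraries, circles female-titled and triangles male-titled, and bars are arithmetic means. Gpr84 sits at 434 to 1198 CPM in all 4 libraries of 4/9/14, above the highest other LPS library (323 CPM), whereas S100a8 separates the 3 male-titled libraries (579 to 2051 CPM) from the female-titled one (133 CPM).

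Genes of the NF-kB pathway and its feedback stood higher by their list median when compared within each title, though few cleared the fold limit. Of 27 tested, 1 was called higher (Tnfaip2), and Nfkbia and Ier3 also lay above all others with a smaller difference. The list median was 0.68, with 0.82 for male titles and 0.48 for the female-titled library. The list score of the female-titled library was 1.63, inside the range of the other LPS libraries (0.61 to 1.76). It lay above the other female-titled libraries alone (0.61 to 1.58). The male-titled libraries scored 1.93, 2.40 and 2.45, above all the others. Tnfaip2, a gene known for its induction by tumour necrosis factor, was at 293 CPM in the female-titled library and 486, 938 and 924 CPM in the male-titled ones, against 64.9 to 244 CPM. Nfkbia, the inhibitor that holds NF-kB in the cytoplasm and is itself an NF-kB target, was at 1124, 914, 1193 and 1382 CPM in female-titled library 4 and male-titled libraries 3, 4 and 5. The other LPS libraries held 547 to 864 CPM of it, so here the female-titled library stood among the male-titled ones.

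Other members of the list differed in how the female-titled library stood. Irak3, which restrains receptor signalling, was at 30.1 CPM in the female-titled library, inside the range of the others (21.02 to 55.9 CPM), and at 106, 147 and 91.6 CPM in the male-titled ones. Tnip1, a partner of the deubiquitinase A20, was at 184 CPM in the female-titled library, 84.8, 161 and 199 CPM in the male-titled ones and 41.5 to 156 CPM in the others. Among female titles, 6 of 27 members were called higher (Bcl3, Nfkbie, Socs3, Tnfaip2, Tnip1 and Traf1), where a gene had to leave the range of the 5 other female-titled libraries by 2-fold. That rule calls 4.6% of all genes higher and 4.93% lower.

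Among the genes that differed most in either direction, Gpr84 had the female-titled library level with the male-titled ones. Gpr84, a receptor for medium-chain fatty acids on activated myeloid cells, was at 750 CPM in it and at 434, 786 and 1198 CPM in the male-titled ones. Its log2 difference was 2.26 in male and 2.25 in female titles. F10, coagulation factor X, had the largest difference of the called genes, 2.80 ± 0.45 (SE), with 22.9, 37.4, 55.4 and 18.6 CPM against 0 to 10.3 CPM in the other LPS libraries. Asprv1, an aspartic protease, and Lipg, endothelial lipase, differed by 2.18 and 2.17. Foxp4, a forkhead factor, and Il4i1, an amino acid oxidase, differed by 2.12 and 2.11, and the reads of Il4i1 cannot be told apart from those of the overlapping readthrough gene Nup62-il4i1. Without female-titled library 4 the log2 differences of Lipg, Foxp4 and Il4i1 were 2.65, 2.41 and 2.47, each the highest with 1 library left out.

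Hp (haptoglobin), F3 (tissue factor, which starts coagulation), Tnfsf9 (the 4-1BB ligand) and Slpi (an inhibitor of leukocyte proteases) were also called, and are named after their values were seen. Hp was at 114, 136, 325 and 140 CPM in female-titled library 4 and male-titled libraries 3, 4 and 5, against 22.8 to 61.8 CPM. F3 was at 31.2 CPM in the female-titled library and 111, 111 and 123 CPM in the male-titled ones, against 3.02 to 25.5 CPM.

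The lower genes were few and mostly weakly expressed. Mgl2, a C-type lectin of macrophages and dendritic cells, was at 2.32 to 4.34 CPM in the 4 libraries and 6.24 to 28.5 CPM in the other LPS libraries. Nt5m, a mitochondrial nucleotidase, was at 4.15 to 6.23 CPM against 6.69 to 17.5 CPM. Fan1, a DNA repair nuclease, Pdpr and Zfp810 differed by -1.33, -1.08 and -1.02 on the log2 scale. Rgs2, which limits G protein signalling, was the most abundant of the 8 lowest genes without overlap, at 803, 795, 590 and 598 CPM against 830 to 1681 CPM, with a log2 difference of -0.88. Kdm5b, a histone demethylase, differed by -0.97.

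Interferon genes overlapped between the 4 libraries and the others. Of 34 tested type I interferon response genes, 0 were called in either direction, and the median difference was 0.27. Over all genes the rule calls 0.304% higher and 0.0664% lower, so a count of 0 in a list of this size says little. The same holds for the other short lists below. Of 15 interferon-induced GTPases, 0 were called and the median was 0.08. The interferon score was 2.11 in the female-titled library and 2.88, 2.93 and 3.03 in the male-titled ones, while the other LPS libraries ran from 0.67 to 3.00. Within male titles the score did not overlap, since the 4 other male-titled libraries ran from 1.99 to 2.61. There 2 of 34 interferon genes were called higher (Cxcl10 and Oas3), with a median of 0.51, and the female-titled library had a median of -0.17. Ifit1, an antiviral RNA-binding protein, was at 247 CPM in the female-titled library and 626, 479 and 420 CPM in the male-titled ones. The others ranged from 33.2 to 582 CPM, so only male-titled library 3 lay above them. Gbp7, one of the GTPases, was at 148 CPM in the female-titled library and 626, 440 and 438 CPM in the male-titled ones, against 133 to 352 CPM.

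Acute-phase genes, which encode secreted proteins of systemic inflammation, were high in the male-titled libraries. Of 9 tested, 0 were called over the 4 libraries and 7 over the male-titled ones, with medians of 1.35 and 1.79 and a median of 0.34 in the female-titled library. Saa3, a serum amyloid protein, was at 62.3 CPM in the female-titled library and 277, 675 and 147 CPM in the male-titled ones, against 11.1 to 78.9 CPM in the other LPS libraries and at most 1.13 CPM with saline. Lcn2, the iron-binding lipocalin, was at 1462, 1857, 3970 and 2594 CPM against 459 to 2692 CPM, so that its groups overlapped.

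Neutrophil and monocyte markers, but not lymphocyte markers, were high in the male-titled libraries. Of 11 tested neutrophil markers, 0 were called over the 4 libraries and 8 over the male-titled ones, and of 12 monocyte markers 0 and 8. S100a8, a calcium-binding protein abundant in neutrophils, was at 133 CPM in the female-titled library and 2051, 1412 and 579 CPM in the male-titled ones, against 82.2 to 302 CPM. Ly6c2, a surface protein of inflammatory monocytes, was at 12.5 CPM in the female-titled library and 51.1, 68.4 and 35.9 CPM in the male-titled ones, against 4.112 to 14.3 CPM. Ccr2, the chemokine receptor that defines these monocytes, was low everywhere, with 5.797 to 34.8 CPM in the 4, 5.53 to 25.1 CPM in the others and 7.59 to 42.5 CPM with saline.

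The summed level of the 15 neutrophil markers in the table was 1181 to 7334 CPM in the 4 libraries and 981 to 1965 CPM in the others, with the female-titled library at the lowest of the 4 values. The 12 monocyte markers summed to 1047 to 3330 CPM and 678 to 1284 CPM. Of the 15 neutrophil markers, Elane alone was at 0 in all 9 other LPS libraries, and of 13 lymphocyte markers Cd3e, Cd3d, Cd8a and Ms4a1 were at 0 in all 4. The 3 tested lymphocyte markers scored 1.79 in the female-titled library and 0.23 to 0.86 in the male-titled ones, with 0 called and medians of 0.04 in male and 0.88 in female titles. In bulk RNA, fewer cells of a type and less RNA per cell cannot be told apart. The neutrophil and monocyte markers and the inflammatory genes were high in the same 3 libraries, and their part in each other's levels was not tested.

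For endothelial activation genes the female-titled library scored as high as the male-titled ones. The score was 4.64 in it and 4.67, 4.75 and 4.64 in the male-titled ones, and 3.135 to 4.53 in the other LPS libraries. Of 7 tested members, 1 was called (Sele), with medians of 1.44 in male and 0.97 in female titles. Sele, the E-selectin to which leukocytes adhere, was at 463 CPM in the female-titled library and 971, 851 and 540 CPM in the male-titled ones, against 142 to 431 CPM in the others and 0 to 40.8 CPM with saline. Selp, P-selectin, overlapped with the others at 515 CPM in the female-titled library. The female-titled library of 4/10/14 with the highest score, at 4.53, was the nearest neighbour of the 4. The score of the 16 constitutive endothelial markers was -0.88 to -0.14 in the 4 libraries and -1.36 to 0.10 in the others.

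**Figure D3:**
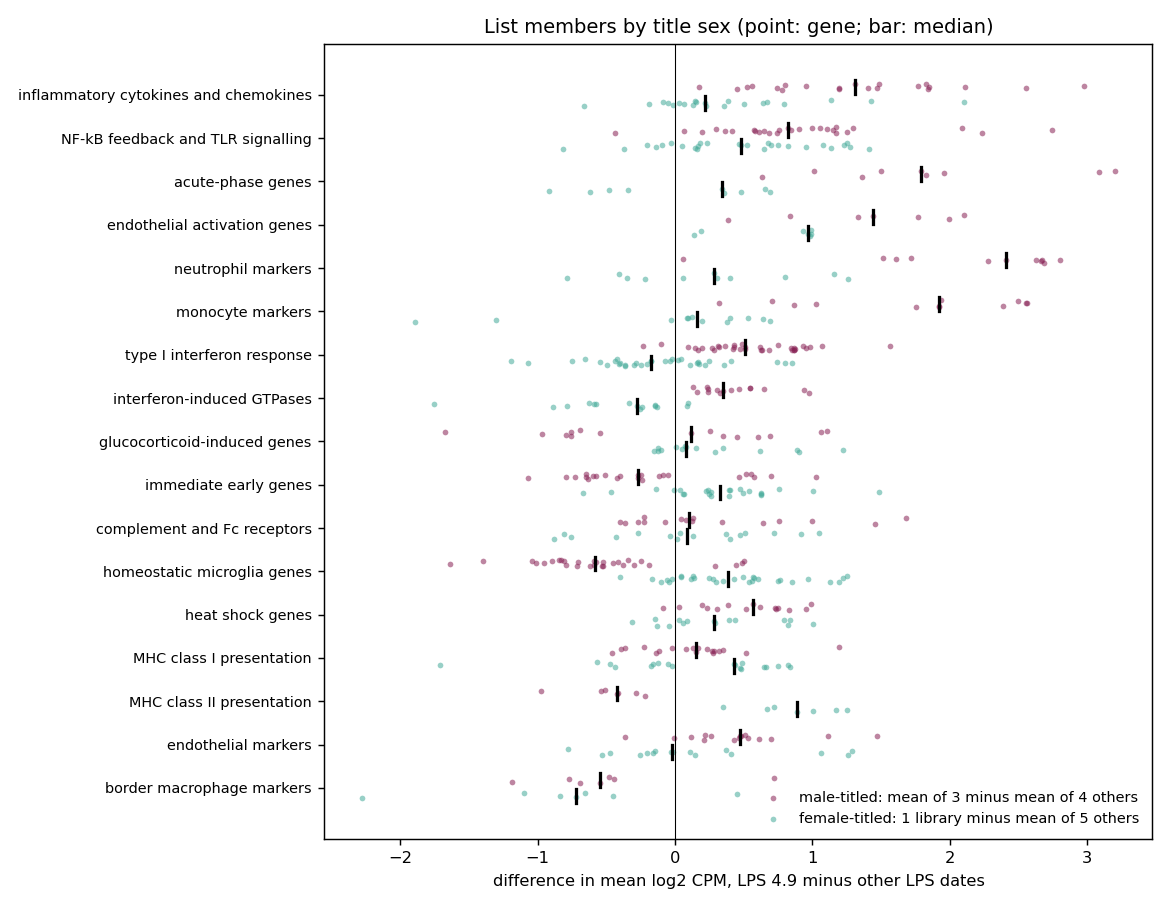
Difference in mean log2 CPM between libraries of 4/9/14 and other LPS libraries for each tested member of 17 lists, computed within male titles (3 against 4) and for the female-titled library (1 against 5); points are genes and bars are list medians. Inflammatory, acute-phase, neutrophil and monocyte lists have medians of 1.31 to 2.41 in male titles and 0.16 to 0.34 in the female title, and homeostatic genes have medians of -0.58 and 0.39.

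Homeostatic microglia genes, which mark the resting state, differed in sign between the titles, with medians of -0.58 and 0.39 and 0 of 30 called over the 4 libraries. P2ry12, the purinergic receptor of resting microglia, was at 3403 CPM in the female-titled library and 2840, 1877 and 2173 CPM in the male-titled ones, against 2695 to 5323 CPM. Tmem119, a microglial surface protein, was at 2321 CPM in the female-titled library, above all other LPS libraries (585 to 1406 CPM), and at 558, 583 and 1086 CPM in the male-titled ones. Sall1, a transcription factor of microglial identity, was at 325 CPM in the female-titled library and 145, 109 and 208 CPM in the male-titled ones, against 141 to 708 CPM. The 7 tested MHC class II genes were split likewise, with medians of -0.43 and 0.89. Glucocorticoid-induced genes (median 0.16, 0 of 15 called) and immediate early genes (median -0.13, 0 of 24 called) did not separate the dates.

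The same programmes were tested in the 9 other LPS libraries against the 12 saline libraries. These 9 are what was left once the strong date was set aside. The size of their inflammatory rise is therefore partly set by the choice. By edgeR's quasi-likelihood test 1231 genes passed an adjusted p of 0.05 (11.7%), 953 of them higher (9.04%) and 278 lower (2.64%). Of the inflammatory genes 18 of 21 rose (median log2 change 1.16), as did 20 of 27 NF-kB genes (1.07), 33 of 34 interferon response genes (2.42), 15 of 15 GTPases (2.81), 9 of 9 acute-phase genes (4.74) and 6 of 7 endothelial activation genes (2.97). Of the leukocyte markers 9 of 11 neutrophil genes (2.36) and 8 of 12 monocyte genes (1.81) rose. The median over all genes was -0.05. Interferon genes thus rose over saline in these 9 libraries. Il1b and Tnf rose there by 0.82 ± 0.19 and 0.65 ± 0.19 (SE) on the log2 scale (edgeR adjusted p = 0.0033 and 0.023). Of the homeostatic genes 0 rose and 1 of 30 fell (Gpr34, -0.54 ± 0.17 SE, edgeR adjusted p = 0.035). With the sex characteristic its adjusted p was 0.0501 by edgeR. Of 16 endothelial markers 1 rose and 8 fell (median -0.63).

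The contrast of 4/8/14 with 4/10/14 did not enter the choice. By edgeR 963 of 10538 genes had an unadjusted p under 0.05 there. After adjustment 6 passed (0.0569%), 2 higher at 4/8/14 (0.019%) and 4 lower (0.038%). None of the 21 inflammatory, 27 NF-kB or 34 interferon genes was among them, with list medians of -0.29, -0.67 and -0.23 for 4/8/14 minus 4/10/14. With so small a share of all genes called, a count of 0 in these lists says little. The NF-kB score ran from 0.61 to 1.24 at 4/8/14 and from 1.43 to 1.76 at 4/10/14, without overlap. Inflammatory scores (0.78 to 1.66 and 1.53 to 2.00) and interferon scores (0.67 to 2.60 and 1.99 to 3.00) overlapped. These scores were not tested between the dates. Maff, a small Maf factor and immediate early gene, was 57.9 ± 14.2 CPM (SD, n = 5) at 4/8/14 and 132 ± 10.5 CPM (SD, n = 4) at 4/10/14, a log2 change of -1.16 ± 0.19 (SE, edgeR adjusted p = 0.027). The 4 libraries of 4/9/14 held 103 to 162 CPM of it. Rasgef1b, Tagln2 and Rabgef1 were also lower at 4/8/14 (-1.27, -1.16 and -1.13). Mid1, which spans the boundary of the pseudoautosomal region, and G530011O06Rik were higher at 4/8/14 (1.34 and 2.73), and counts of genes there may be split between copies. With the sex characteristic in place of the title 0 genes passed, and with 1 LPS library left out 0 to 3 were higher and 0 to 17 lower. Both counts were 0 without female-titled library 1, 2, 5 or 6 or male-titled library 2, 4, 6 or 7, and the highest were without female-titled library 3.

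Male and female titles were compared in the 9 other LPS libraries, because the 4 hold only 1 female title. All 3 LPS libraries whose title and sex characteristic disagree are among these 9, so that male-titled libraries 2 and 7 and female-titled library 3 carry the other sex there, and the comparison is one of titles. There edgeR called 6 genes (0.0569%) and 0 members of the inflammatory, neutrophil or monocyte lists. The median log2 difference, male minus female, was 0.22 for the inflammatory list (15 of 21 members higher in male titles), 0.51 for neutrophil markers (9 of 11), 0.07 for monocyte markers (7 of 12) and -0.58 for acute-phase genes (1 of 9). Over all 13 libraries, with no term for date, these medians were 0.71, 1.57, 1.23 and 0.51, with 22 genes called over all (0.209%). With a term for date they were 0.43, 0.96, 0.52 and -0.21, with 53 genes called (0.503%). Whether the gap between the titles in the 4 libraries follows sex or the single female-titled library cannot be told apart.

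Which programmes scale together was examined inside dates, where the difference that chose the 4 libraries drops out. Each library's score was centred on the mean of its date, and the inflammatory score was related to 26 other lists over 13 LPS libraries, with exact permutations within dates. By Pearson's r no list passed after Benjamini-Hochberg adjustment, and 5 had an unadjusted p under 0.05. NF-kB feedback genes followed the inflammatory score most closely, and passed by rank only (r = 0.77, exact permutation p = 0.011, adjusted 0.16, rho = 0.81, exact permutation p = 0.0010, adjusted 0.026). Without female-titled library 4 alone r was 0.59, the lowest with 1 library left out. Without female-titled libraries 4 and 3, which lie farthest from the median, it was 0.77.

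The type I interferon score gave r = 0.73 (exact permutation p = 0.012, adjusted 0.16) and rho = 0.51 (exact permutation p = 0.054, adjusted 0.20), and without these 2 libraries r was 0.34, so the relation rests on them. Complement and Fc receptor genes gave r = 0.74 (exact permutation p = 0.030, adjusted 0.20; rho = 0.73, exact permutation p = 0.021, adjusted 0.20), with r = 0.59 without the pair. Acute-phase genes gave r = 0.67 (exact permutation p = 0.040, adjusted 0.21; rho = 0.34, exact permutation p = 0.31, adjusted 0.48) and r = 0.04 without the pair. The GTPases gave r = 0.61 (exact permutation p = 0.029, adjusted 0.20; rho = 0.32, exact permutation p = 0.28, adjusted 0.48) and r = 0.03 without the pair. Endothelial activation genes showed no relation in either measure (r = -0.08, exact permutation p = 0.68, adjusted 0.75; rho = -0.13, exact permutation p = 0.65, adjusted 0.77).

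Neutrophil markers gave r = 0.63 (exact permutation p = 0.14, adjusted 0.30; rho = 0.43, exact permutation p = 0.18, adjusted 0.36) and monocyte markers r = 0.58 (exact permutation p = 0.19, adjusted 0.33; rho = 0.37, exact permutation p = 0.35, adjusted 0.48). Without female-titled library 4 these became -0.04 and -0.08, and in the 9 libraries of the other dates -0.05 and -0.32. The relation of these markers to inflammatory genes inside dates therefore rests on that library. Mean transcript GC moved against the inflammatory score (r = -0.59, exact permutation p = 0.15, adjusted 0.42 over 4 technical measures; rho = -0.30, exact permutation p = 0.46, adjusted 0.61), and its part in the relations was not tested.

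With the type I interferon score as the reference, 2 of 26 lists passed by Pearson's r. They were the GTPases (r = 0.91, exact permutation p = 0.0016, adjusted 0.039; rho = 0.87, exact permutation p = 0.0060, adjusted 0.12) and the acute-phase genes (r = 0.76, exact permutation p = 0.0030, adjusted 0.039; rho = 0.65, exact permutation p = 0.0091, adjusted 0.12). Without female-titled libraries 3 and 4 r was 0.85 and 0.71, and neither passed the adjustment. The same reference gave r = 0.34 for the NF-kB list (exact permutation p = 0.27, adjusted 0.70; rho = 0.32, exact permutation p = 0.22, adjusted 0.64). Mean transcript GC ran against the interferon score (r = -0.61, exact permutation p = 0.048, adjusted 0.19 over 4 technical measures). By rank it gave rho = -0.35 (exact permutation p = 0.21, adjusted 0.71), and its part in these relations was not tested. No gene belongs to more than 1 list, but libraries, scaling and depth are shared by all scores.

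Inside saline dates 3 lists passed with the inflammatory score by Pearson's r. Over 12 saline libraries it was related to complement and Fc receptor genes (r = 0.93, exact permutation p = 0.00012, adjusted 0.0023; rho = 0.91, exact permutation p = 0.00014, adjusted 0.0038). MHC class I genes gave r = 0.89 (exact permutation p = 0.00017, adjusted 0.0023; rho = 0.87, exact permutation p = 0.00032, adjusted 0.0041). Homeostatic microglia genes gave r = 0.78 (exact permutation p = 0.0031, adjusted 0.027; rho = 0.74, exact permutation p = 0.013, adjusted 0.085). Markers of mural cells, the contractile cells of vessel walls, ran against the score, and passed by rank only (r = -0.70, exact permutation p = 0.021, adjusted 0.099, rho = -0.80, exact permutation p = 0.0034, adjusted 0.029). Endothelial, oligodendrocyte, astrocyte and choroid plexus markers also ran against it (r = -0.54, -0.55, -0.54 and -0.52), and passed by neither measure. Lymphocyte markers and endothelial activation genes ran with it (r = 0.50 and 0.13). Inside LPS dates r for mural, endothelial, oligodendrocyte, astrocyte and choroid plexus markers was -0.56, -0.47, -0.60, -0.33 and -0.43, with none past the adjustment. The part of all these markers in the other relations was not tested. In LPS libraries complement and Fc receptor genes had r = 0.74, as given above. There the homeostatic list had r = -0.42 (exact permutation p = 0.29, adjusted 0.42; rho = -0.07, exact permutation p = 0.84, adjusted 0.87) and MHC class I r = 0.04 (exact permutation p = 0.91, adjusted 0.91; rho = 0.15, exact permutation p = 0.67, adjusted 0.77). The difference between treatments was not tested. Without the 2 saline libraries farthest from the median, r was 0.93, 0.83 and 0.74 and 0 lists passed the adjustment.

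**Figure D4:**
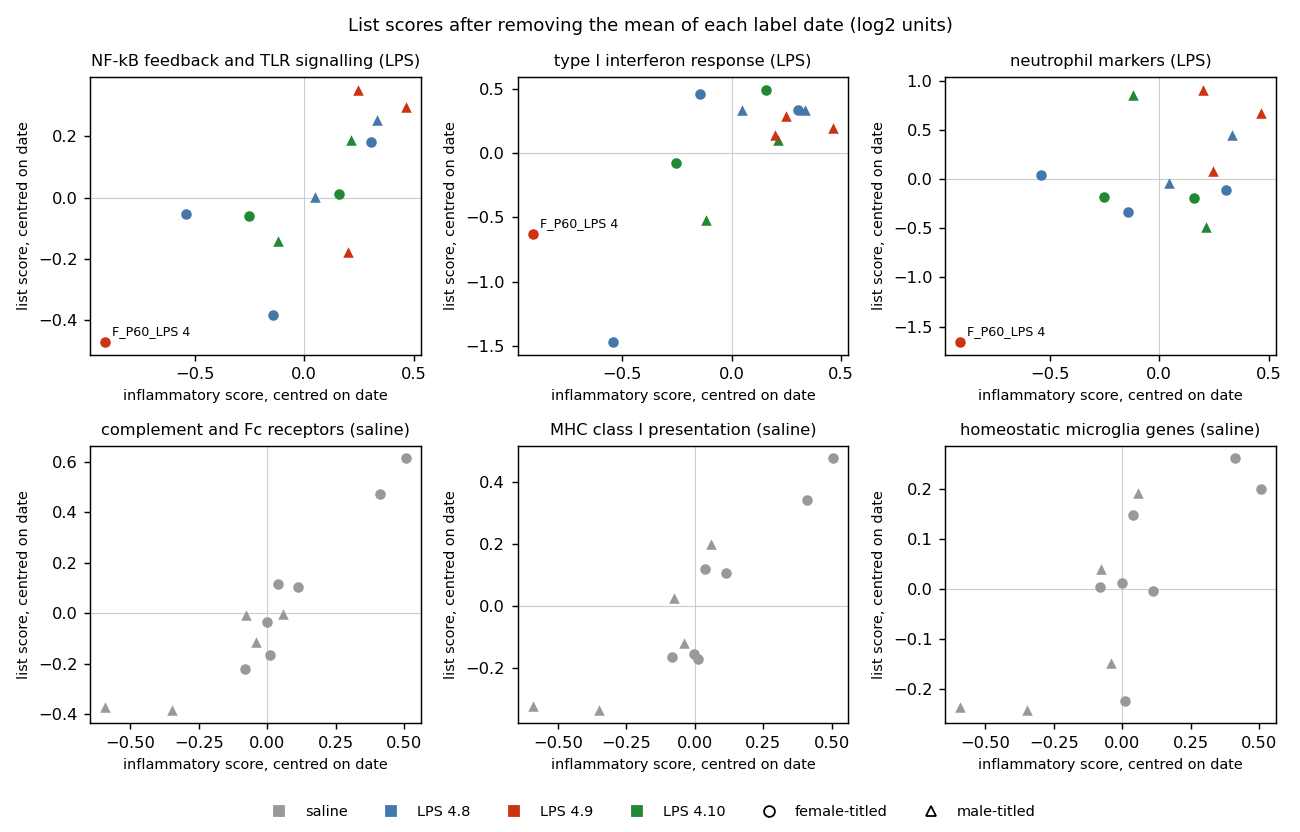
List scores (log2 units) against the inflammatory score after the mean of each label date was removed, for 13 LPS libraries (top) and 12 saline libraries (bottom); each point is 1 library. Female-titled library 4, marked, is farthest left in the 3 LPS panels. It is also lowest, except in the interferon panel, where female-titled library 3 is lowest. Without library 4 r for neutrophil markers goes from 0.63 to -0.04.

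Gene by gene, 87 of 10517 genes (0.827%) had a positive and 19 (0.181%) a negative slope on the inflammatory score inside dates by edgeR, 106 in all (1.01%), with members of the inflammatory list left out, and 2070 had an unadjusted p under 0.05. The 12 genes named here by smallest p (6 in each direction) all lost the adjusted threshold without female-titled library 4, when 0 genes passed in either direction. Bach1, a haem-regulated repressor, had a slope of 1.37 ± 0.20 (SE) log2 units per unit of score (edgeR adjusted p = 0.011). It was at 306 CPM in the female-titled library and 885, 1120 and 1093 CPM in the male-titled ones, against 205 to 596 CPM in the others. Runx1, a myeloid transcription factor, and Ugcg, which makes glucosylceramide, had slopes of 1.36 and 1.49.

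Map3k8, the kinase that links NF-kB precursors to MAP kinases, had a slope of 1.40 and Birc3 one of 0.79, so 2 of 27 NF-kB genes passed. Of 34 interferon genes 3 passed (Mx1, Stat2 and Trim30a, with slopes of 1.83, 1.22 and 1.13), and of 15 GTPases 1 (Gbp7, 1.34). Among acute-phase genes 1 of 9 passed (C3, 1.44), among monocyte markers 1 of 12 (Plac8, 1.34), and among neutrophil markers 0 of 11. Cd300lf, an inhibitory receptor of myeloid cells, and Niacr1, the niacin receptor, had slopes of 1.83 and 1.62. Negative slopes were led by Rapgef3, at 33.2 CPM in the female-titled library of 4/9/14, 29.2 CPM in female-titled library 3 and 2.49 to 13.3 CPM in the other 11 LPS libraries. Nos3, the endothelial nitric oxide synthase, was high in the same pair, at 67.5 and 67.4 CPM. Tmem106c, Slc19a1, Narfl and Pgpep1 had slopes of -1.32, -1.71, -1.63 and -1.46, and that of Tmem106c was -0.72 without female-titled library 4. With title sex as a further term 1 gene had a positive and 0 a negative slope, and in the 9 libraries of the other dates 0 passed in either direction.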

How the data were processed

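The deposited values are whole-number counts per transcript row that the authors provided for 60 libraries. Per the submitters' processing notes, CASAVA 1.8.2, edgeR and the mm9 assembly were used; for alignment and counting the program is not given in the sources used here. In all there were 28644 rows and 22869 symbols. Each symbol kept its row marked as best, and 881 symbols with no such mark kept the row with most counts. The members, gene lists and tests were chosen with earlier results of these data known.

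Over all 25 P60 libraries, genes were filtered by edgeR's default (10538 kept), scaled by TMM and tested in edgeR 4.0.16 with quasi-likelihood F tests, robust, two-sided, Benjamini-Hochberg adjusted at 0.05. LPS against saline used title sex within groups. The other fits used the 13 LPS libraries, with title sex (dates) or label date (slope) as a term. The comparison that chose the members has no test. Scores used a prior count of 2 and lists with at least 3 tested members, which left out the neuron and red blood cell lists. Correlations used 69120 within-date permutations for LPS and 34560 for saline. Methods were tested on simulated data.

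Named genes were, for 4/9/14, the 8 highest and 8 lowest differences without overlap at a mean of 10 CPM or more, and up to 4 members per list. For the other comparisons they were the 5 highest and 5 lowest, and up to 2 members per list, and for the slope the 6 genes of smallest p in each direction. Members of a list that a sentence is about are named beside these, and not every gene chosen this way is printed; some results are not reported here. Alternatives were DESeq2 1.42.0, other scalings, filters, rows and sex labels, a replicate block, and single libraries left out. Those chosen after seeing the data were title sex as a term for the slope, the comparison of titles, the single female-titled library, the interferon reference, the technical measures and leaving the 4 libraries out of the saline fit. Replicate numbers were not treated as pairs in the main fits. Same-numbered female and male LPS libraries correlated by -0.03 on average, with 0 of 6 over 0.1. Saline ones correlated by 0.093, with 4 of 5 over 0.1, and whether saline numbers mark pairs is not known. All 78 pairs of LPS libraries differed by more than counting noise (chi-square divided by the number of genes, 3.56 to 34.1).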

Additional observations from a re-analysis of the deposited data

Results flagged for a closer look

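A library was set apart where its gap to its nearest neighbour took an unusually large part of the range of its group by Dixon's criterion. This was examined for list scores, technical measures and the 8 plotted genes in the 4 libraries of 4/9/14 and the 9 others, 78 cases in all, of which chance flags about 1 in 20, and 5 stood out. Female-titled library 4 had the lowest type I interferon score of the 4, at 2.11, with the next at 2.88. Among the others, female-titled library 3 was lowest on the same score, at 0.67, with the next at 1.99. Female-titled library 2 was lowest on immediate early genes, at -0.56, and highest on cholesterol synthesis genes, at 0.72. The same library had the highest share of counts from Ttr, at 6.90%, with the next at 3.56%.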

How the results depend on the processing

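With 856681 to 970080 counts per library, genes of a few CPM rest on few counts, and 1 female-titled library stands for its title at 4/9/14. For LPS of other dates against saline, 278 genes were lower, and 449 with DESeq2, 181 with the sex characteristic and 163 with a replicate block, and with 1 library left out 773 to 1103 were higher and 185 to 388 lower. For 4/8/14 against 4/10/14 (2 higher, 4 lower), DESeq2 gave 12 and 63, no filter 15 and 113, and the sex characteristic 0 and 0. DESeq2's size factor method in edgeR gave 2 lower, and single libraries left out gave 0 to 3 and 0 to 17. For 4/9/14 against other dates (32 higher, 7 lower), no filter gave 51 higher, the other scaling 3 lower, and male titles alone 310 and 172 by the fitted fold (300 and 150 by the difference in mean log2 CPM), and leaving out 1 library gave 32 to 189 and 3 to 50, most without female-titled library 4.

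For the slope (87 positive, 19 negative), DESeq2 gave 404 and 143, no filter 151 and 50, the sex characteristic 11 negative and the row of highest total 29 negative. Title sex as a term, added after seeing the data, gave 1 and 0. The replicate block gave 0 and 0, as did the 9 libraries of other dates. Leaving out 1 library gave 0 to 359 and 0 to 201, with 0 and 0 without female-titled library 4 and the most without female-titled library 2. For male against female titles (11 higher, 11 lower), a date term gave 42 lower and the 9 libraries 4 and 2, and single libraries left out gave 4 to 39 and 2 to 104.

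Lists passing by Pearson's r with the inflammatory score in LPS dates were 0, and 0 to 1 with 1 library left out. In saline dates they were 3, and 0 when centred on date and title sex or without the 2 farthest libraries, and 2 to 4 with 1 left out. With the interferon score they were 2, and 0 by the median over members, when centred on date and title sex, in 9 libraries, or without the 2 farthest, and 0 to 3 with 1 left out. For neutrophil markers r reversed to -0.22 with date and title sex, -0.050 in 9 libraries, -0.0135 without the 2 farthest and -0.036 without female-titled library 4, the range with 1 library left out being -0.036 to 0.75. For monocyte markers it reversed to -0.077 with date and title sex, -0.32 in 9 libraries and -0.078 without female-titled library 4, with a range of -0.078 to 0.755, and for saline ribosomal proteins to -0.23 without the 2 farthest. The causes of these changes were not tested. An uncentred r over LPS libraries was not run, since it holds the difference that chose the 4, and no replicate block was fitted for comparisons between dates. The libraries of 4/8/14 and 4/10/14 share no replicate number.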
